A study of Homo sapiens with 6 samples.

Results

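The G1 cyclins, their kinases and their inhibitors were followed here as a group of 10 genes among the 21619 genes counted in MDA-MB-231 cells, an established line from a human triple-negative breast cancer. The 10 genes were taken by name: the D cyclins CCND1 and CCND3, the E cyclins CCNE1 and CCNE2, the kinases CDK2, CDK4 and CDK6, and the CIP/KIP inhibitors CDKN1A, CDKN1B and CDKN1C. The cells carried an EGFP-tagged L10a protein of the large ribosomal subunit, and mRNA bound to tagged ribosomes was pulled down with beads coated with an antibody to GFP (translating ribosome affinity purification, TRAP), then sequenced as polyadenylated RNA. All cultures had been starved for 24 h in 0.2% serum. They were then left untreated, or given for 6 h either a lower dose (30 ng/mL of the chemokine CXCL12 plus 10 ng/mL of the growth factor IGF1) or a higher dose (300 ng/mL CXCL12 plus 100 ng/mL IGF1). Each of the 3 groups had 2 libraries, lettered a and b, which the labels call biological replicates. The p-values measure only the spread between these libraries. Neither factor was given alone, so their separate effects cannot be told apart, and whether the tagged line was 1 clone is not given in the sources used here.

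In G1, the D cyclins bind CDK4 or CDK6, and these complexes phosphorylate the retinoblastoma protein RB1 and its relatives. Phosphorylation releases the E2F transcription factors, whose targets include the E cyclins and many genes of DNA replication. Cyclin E with CDK2 then drives entry into S phase. The CIP/KIP proteins p21 (CDKN1A), p27 (CDKN1B) and p57 (CDKN1C) inhibit cyclin E with CDK2, and p21 and p27 also help D cyclins assemble with CDK4. Growth factors act on this machinery through transcription, translation and protein stability, and serum starvation holds many cell types in G1. The best known activator of CDKN1A is p53, which is mutant in this line.

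Reads on genes ranged from 26255079 to 30280322 per library, and a count of 0 allowed a level of up to 0.0991 to 0.114 CPM (counts scaled to library size; from 3 reads, counting error only). Markers described as present in the line were found: VIM lay between 2681 and 3749 CPM and CD44 between 741 and 941 CPM. Of those described as absent or low, ESR1 had at most 4 reads, PGR at most 5 and CDH1 2 to 13 in a library. EPCAM, also taken as absent or low in the line, had 319 to 393 reads (11.3 to 13.6 CPM). Of the markers of other cell types, PECAM1 had 32 to 55 reads, PTPRC 4 to 14, and CD3E and CDH5 none. All 10 genes were among the 13548 that passed the filter on low counts and were tested.

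At the higher dose, E cyclins, CDK4, CDK6 and p21 mRNA stood above untreated cells, cyclin D1 slightly below, and p57 mRNA well below. At that dose 5 of the 10 genes rose, 2 fell and 3 did not pass (edgeR's quasi-likelihood test, Benjamini-Hochberg adjusted over all tested genes, threshold 0.05). Over all tested genes 56.3% were called, 28.1% higher and 28.2% lower, so 7 calls among 10 genes are not far from the background. At the lower dose 4 rose, 2 fell and 4 did not pass, against 32.6% called over all tested genes, 16.7% higher and 15.9% lower. The median log2 fold change of the 10 genes was 0.15 at the higher dose and 0.12 at the lower dose, beside −0.0008 and −0.0021 over all tested genes. Most changes were small. The replicates lay close together, with a biological coefficient of variation of 1.79%, so small changes could pass. CDKN1C was the only one of the 10 called with a change of at least 1.5-fold at the higher dose, a size that 6.90% of all tested genes reached. None of the 10 reached it at the lower dose, where 0.760% did. Both doses were compared with the same untreated libraries. Total RNA was not analysed here, so changes in mRNA abundance, ribosome association and recovery cannot be told apart. Nor can a shift in the share of cells in a cycle phase be told from a shift within each cell.

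**Figure D1:**
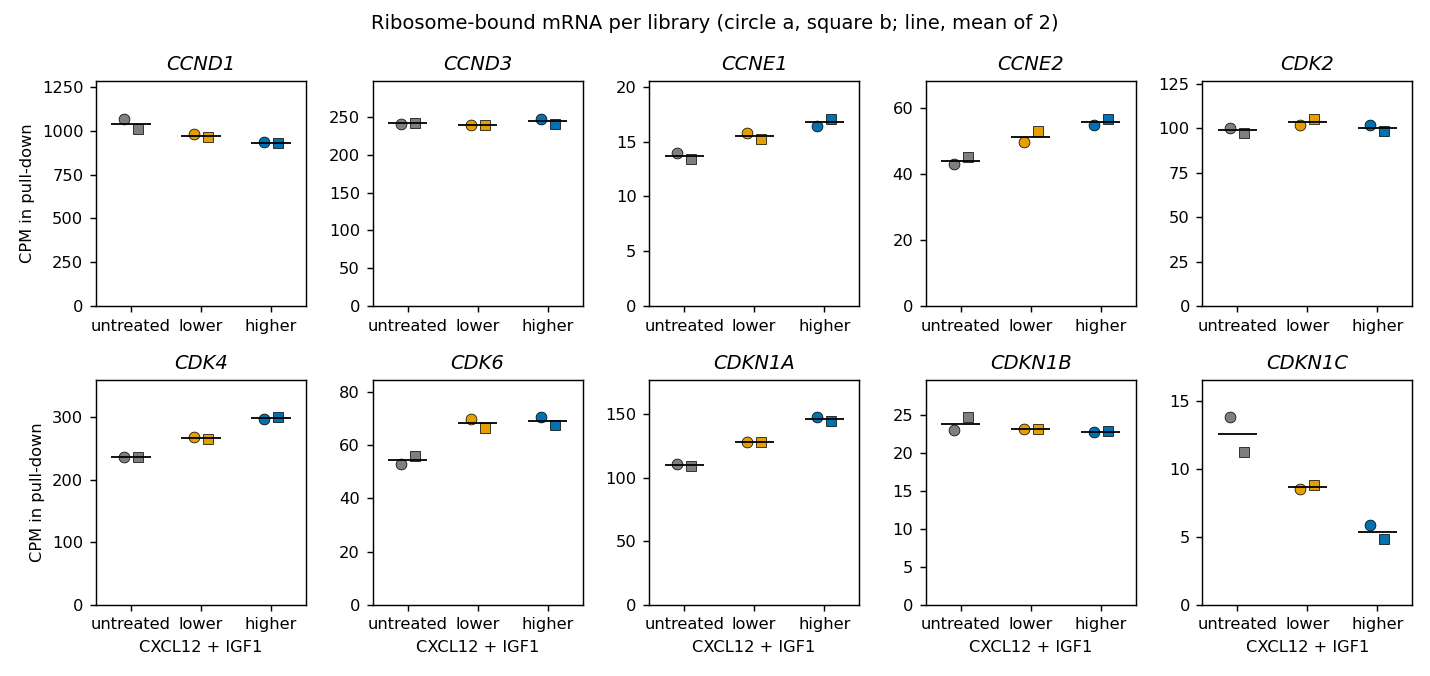
Level of each of the 10 genes (CPM, y axis starting at 0) in the 2 libraries of each group, untreated, lower dose and higher dose from left to right; circles are libraries a, squares libraries b, and lines group means. CDK4 and CDKN1A step up at each dose without overlap, CDKN1C steps down, and CCND3, CDK2 and CDKN1B stay within about the same range.

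Cyclin D1 fell and cyclin D3 did not pass the test. CCND1, the D cyclin best known as a target of growth factor signalling, had 1069 and 1011 CPM in untreated cells, 981 and 964 CPM with the lower dose, and 936 and 928 CPM at the higher dose. The 3 groups did not overlap, although the 2 untreated libraries stood farther apart than either treated pair. CCND1 fell by 6.49% at the lower dose (log2 fold change −0.10 ± 0.03 SE, edgeR adjusted p = 0.00354) and fell by 10.4% at the higher dose (−0.16 ± 0.03, edgeR adjusted p = 1.16e-06). The fall at the lower dose was lost without untreated a (−0.059, edgeR adjusted p = 0.152), and after a correction for transcript length and GC content it was −0.062 (edgeR adjusted p = 0.0429). That correction also brought the change at the higher dose to −0.086, still called (edgeR adjusted p = 0.00184). Between the doses CCND1 did not pass (−0.06 ± 0.03, edgeR adjusted p = 0.0715), but it passed in the fit of the 2 dose groups alone (edgeR adjusted p = 0.0393), without untreated a (0.0409) and without untreated b (0.0397). It was −0.024 after the correction for length and GC content (edgeR adjusted p = 0.494), and DESeq2 did not call it (adjusted p = 0.123).

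CCND3, which pairs with the same kinases, had 240.5 and 242 CPM in untreated cells, 239.7 and 239 CPM with the lower dose, and 248 and 241 CPM at the higher dose. The higher dose and untreated libraries overlapped, and the lower dose libraries lay just below both. Its log2 fold change was −0.01 ± 0.03 at the lower dose (edgeR adjusted p = 0.758) and 0.02 ± 0.03 at the higher dose (edgeR adjusted p = 0.649). Scaled to length, CCND1 made up 79.4% of the 2 D cyclins' summed level in untreated cells, 78.4% at the lower dose and 77.3% at the higher dose (means of 2 libraries).

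Both E cyclin mRNAs rose at the higher dose. CCNE1, the scarcer of the pair, had 14.0 and 13.5 CPM in untreated cells, 15.8 and 15.3 CPM with the lower dose, and 16.4 and 17.1 CPM at the higher dose. Each treated library stood above both untreated ones. The 2 doses did not overlap, but the step between them did not pass (0.11 ± 0.07, edgeR adjusted p = 0.241). At the higher dose CCNE1 was 22.4% above untreated cells (0.29 ± 0.07, edgeR adjusted p = 0.000661). At the lower dose the difference missed the threshold (0.18 ± 0.08, edgeR adjusted p = 0.0597).

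CCNE2, the other cyclin that activates CDK2, had 43.0 and 45.0 CPM in untreated cells, 49.6 and 53.0 CPM with the lower dose, and 54.7 and 56.7 CPM at the higher dose. Here too the 3 groups were in the order of the dose, without overlap. CCNE2 rose by 16.4% at the lower dose (0.22 ± 0.05, edgeR adjusted p = 0.000143) and by 26.5% at the higher dose (0.34 ± 0.05, edgeR adjusted p = 6.51e-09). The step between the doses was 0.12 ± 0.04 (edgeR adjusted p = 0.0315). That step lost its call without lower dose a (0.072, edgeR adjusted p = 0.351) and without higher dose b (0.092, edgeR adjusted p = 0.252), as well as with DESeq2 (adjusted p = 0.19) and after the correction for length and GC content (edgeR adjusted p = 0.0655). Per length, CCNE2 was 66.0% of the E cyclin sum in untreated cells, 66.7% at the lower dose and 66.8% at the higher dose. Exons of INTS8 on the opposite strand cover 47.47% of the CCNE2 exons, which these shares do not allow for.

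Of the kinases, CDK4 and CDK6 rose at both doses. CDK4, a partner of the D cyclins, had 237 and 236 CPM in untreated cells, 268 and 265 CPM with the lower dose, and 297 and 300.2 CPM at the higher dose. The replicates were within a few CPM of each other and the groups were well apart. The rise was 12.8% at the lower dose (0.17 ± 0.03, edgeR adjusted p = 2.06e-06) and 26.2% at the higher dose (0.34 ± 0.03, edgeR adjusted p = 2.67e-15), and the step between the doses also passed (0.16 ± 0.03, edgeR adjusted p = 4.29e-06).

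CDK6, the close relative of CDK4, had 53.0 and 56.0 CPM in untreated cells, 69.9 and 66.5 CPM with the lower dose, and 70.5 and 67.7 CPM at the higher dose. All treated libraries stood above the untreated ones, and the 2 doses overlapped. CDK6 rose by 24.9% at the lower dose (0.32 ± 0.04, edgeR adjusted p = 1.59e-08) and by 26.5% at the higher dose (0.34 ± 0.04, edgeR adjusted p = 6.42e-10). The difference between the doses was 0.02 ± 0.04 (edgeR adjusted p = 0.764). CDK2, which pairs with the E cyclins, had 100.1 and 97.6 CPM in untreated cells, 102 and 106 CPM with the lower dose, and 102 and 98.3 CPM at the higher dose. The higher dose libraries overlapped the untreated ones and the lower dose libraries lay just above both, but CDK2 passed in neither comparison (0.07 ± 0.04 at the lower dose, edgeR adjusted p = 0.131, and 0.02 ± 0.04 at the higher dose, edgeR adjusted p = 0.712).

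The 3 inhibitors of the CIP/KIP family did 3 different things. CDKN1A, which encodes p21, had 110.4 and 109 CPM in untreated cells, 128.2 and 127.7 CPM with the lower dose, and 148 and 145 CPM at the higher dose. No 2 groups overlapped, and the steps were many times the distance between replicates. CDKN1A rose by 16.5% at the lower dose (0.22 ± 0.03, edgeR adjusted p = 3.22e-07) and by 33.1% at the higher dose (0.41 ± 0.03, edgeR adjusted p = 2.76e-16). The higher dose stood 14.2% above the lower dose (0.19 ± 0.03, edgeR adjusted p = 2.26e-06).

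CDKN1B, which encodes p27, had 23.1 and 24.8 CPM in untreated cells, 23.24 and 23.21 CPM with the lower dose, and 22.8 and 23.0 CPM at the higher dose. The lower dose libraries lay inside the untreated range and the higher dose libraries just below it. Neither dose passed (−0.05 ± 0.06, edgeR adjusted p = 0.609, and −0.07 ± 0.06, edgeR adjusted p = 0.356). Much of the control of p27 is known to act on the protein, which was not measured here.

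CDKN1C, which encodes p57 and is known as an imprinted gene, had 13.8 and 11.3 CPM in untreated cells (363 and 342 reads), 8.52 and 8.82 CPM with the lower dose (246 and 255 reads), and 5.85 and 4.85 CPM at the higher dose (165 and 138 reads). It had the fewest reads of the 10 genes at both doses, and still the groups did not overlap. CDKN1C fell by 30.5% at the lower dose (−0.52 ± 0.10, edgeR adjusted p = 1.4e-05) and fell by 57.1% at the higher dose (−1.22 ± 0.11, edgeR adjusted p = 1.1e-14). Relative to the lower dose it fell by 38.3% at the higher dose (−0.70 ± 0.11, edgeR adjusted p = 1.93e-06). The 2 untreated libraries differed most. With either left out, the log2 fold change at the lower dose was −0.38 or −0.67, and both passed.

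**Figure D2:**
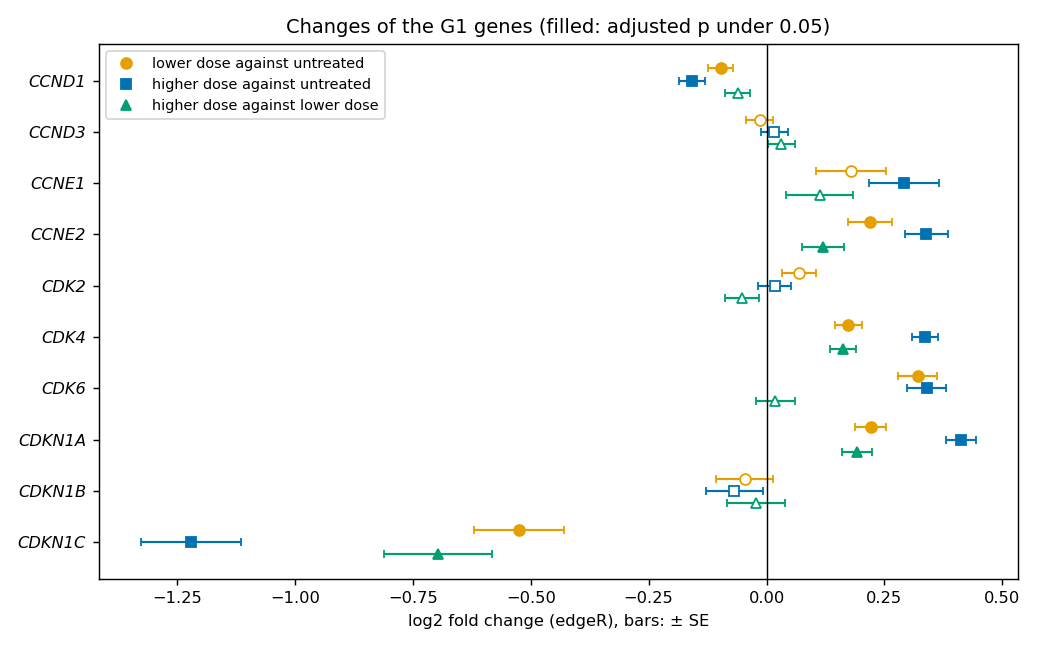
Log2 fold change (x axis, edgeR) of each of the 10 genes at the lower dose against untreated, the higher dose against untreated and the higher against the lower dose; bars are 1 SE and filled symbols passed the adjusted threshold. CDKN1C lies far to the left, at −0.52 and −1.22 against untreated cells, while the rises reach 0.41 (CDKN1A).

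Set directly against each other, the doses differed in 4 of the 10 genes: CCNE2, CDK4 and CDKN1A were higher at the higher dose and CDKN1C was lower. Over all tested genes 34.0% were called in this comparison, 16.4% higher and 17.6% lower. The median of the 10 genes was 0.02, beside −0.0009 over all tested genes. CDKN1C was again the only one of the 10 called at 1.5-fold or more, as were 1.33% of all tested genes.

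Promoter sequence is shown for 3 of the genes that rose (CCNE1, CDK4 and CDKN1A) and for CDKN1B, which did not pass, because growth factor control of these genes is often described at their promoters. The table of RefSeq promoters (GRCh38.p14) held 6 of the 10 genes: CCND3, CCNE1, CDK4, CDK6, CDKN1A and CDKN1B. Each line gives the 250 bases before the annotated start, 5′ to 3′ on the gene's strand, with GC boxes (GGGCGG, the core of SP1 sites, or its reverse complement) in capitals. The windows are chr19:29811741-29811990 on the plus strand for CCNE1, chr12:57752311-57752560 on the minus strand for CDK4, chr6:36678464-36678713 on the plus strand for CDKN1A and chr12:12717118-12717367 on the plus strand for CDKN1B.
CCNE1: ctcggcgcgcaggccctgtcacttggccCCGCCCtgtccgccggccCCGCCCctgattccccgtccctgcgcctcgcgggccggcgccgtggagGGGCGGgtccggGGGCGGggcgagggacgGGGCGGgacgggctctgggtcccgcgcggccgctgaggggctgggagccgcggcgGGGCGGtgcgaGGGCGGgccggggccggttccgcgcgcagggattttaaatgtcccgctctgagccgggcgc
CDK4: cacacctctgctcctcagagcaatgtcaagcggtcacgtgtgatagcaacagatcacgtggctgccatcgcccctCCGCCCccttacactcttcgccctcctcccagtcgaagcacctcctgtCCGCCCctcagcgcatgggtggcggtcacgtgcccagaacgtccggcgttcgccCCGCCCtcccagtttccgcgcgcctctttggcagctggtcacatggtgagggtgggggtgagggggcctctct
CDKN1A: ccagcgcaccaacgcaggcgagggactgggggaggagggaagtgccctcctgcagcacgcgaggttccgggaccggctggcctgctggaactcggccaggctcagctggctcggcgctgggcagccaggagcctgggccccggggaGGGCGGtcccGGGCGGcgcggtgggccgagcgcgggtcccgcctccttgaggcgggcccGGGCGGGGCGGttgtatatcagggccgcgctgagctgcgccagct
CDKN1B: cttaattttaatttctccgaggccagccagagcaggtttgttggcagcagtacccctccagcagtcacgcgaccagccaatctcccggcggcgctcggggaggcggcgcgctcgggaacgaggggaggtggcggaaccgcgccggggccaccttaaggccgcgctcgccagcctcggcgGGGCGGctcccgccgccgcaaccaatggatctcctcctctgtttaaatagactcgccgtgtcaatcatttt
CCNE1 held 7 GC boxes, CDKN1A 4, CDK4 3 and CDKN1B 1. CCND3 held 5 and CDK6 3 at the first start listed for them. All 6 promoters held at least 1, as did 42.64% of the 35116 promoters of the table. None of the 6 windows held, on either strand, any of 4 forms of the E2F site (TTTGGCGC, TTTCGCGC, TTTCCCGC, TTTGCCGC; 2.79% of promoters), the forkhead motif GTAAACA (2.98%), the AP-1 motif TGANTCA (6.57%), the cyclic AMP response element TGACGTCA (1.65%) or TATAAA (10.72%). Only these exact letters were searched, so variant forms of the sites, and sites after the start, would have been missed. GC boxes were present both in genes that rose and in CDKN1B and CCND3, which did not pass.

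Scaled to length (CPM per kilobase of annotated exons, GENCODE 29), the 10 mRNAs covered a wide range. In untreated cells CCND1 was the most abundant at 236 ± 9.41 CPM per kb, then CDK4 at 114 ± 0.336, CCND3 at 61.2 ± 0.336, CDKN1A at 43.8 ± 0.363 and CDK2 at 40.5 ± 0.708 (SD, n = 2). CCNE2 (12.8 ± 0.417) and CDKN1B (9.01 ± 0.445) followed. The ranges of CCNE1 (6.47 to 6.72) and CDKN1C (5.80 to 7.11) overlapped in untreated cells, and CDK6 was lowest at 4.65 ± 0.179. The first 8 places were the same at both doses. CDKN1C was below CDK6 in the treated libraries, at 4.46 and 5.81 CPM per kb at the lower dose and at 2.75 and 5.89 at the higher dose. CDK6 has a long transcript, of 11612 bases, so its level per length is low although its CPM was well above that of CDKN1C in untreated cells.

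Within families, the makeup of the CIP/KIP mRNA shifted most. CDKN1A was 73.9% ± 0.434 of the summed CIP/KIP level per length in untreated cells, 79.4% ± 0.165 at the lower dose and 83.7% ± 0.193 at the higher dose (SD, n = 2). CDKN1C went the other way, with 10.9% ± 1.4, 6.95% ± 0.173 and 3.95% ± 0.464 in the same order of groups. CDKN1B, at 15.2% ± 0.967, 13.6% ± 0.00750 and 12.4% ± 0.271, took a smaller share although its own level did not pass the test. The sum itself was 59.2 CPM per kb in untreated cells, 64.2 at the lower dose and 69.6 at the higher dose. CDK4 was 96.1%, 95.7% and 96.1% of the CDK4 and CDK6 sum, which came to 119, 134 and 149.7 CPM per kb from untreated cells to the higher dose. The E cyclin sum was 19.4, 22.4 and 24.3 CPM per kb, and the D cyclin sum 297, 281 and 273.5. These shares and sums were not tested and are a description.

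**Figure D3:**
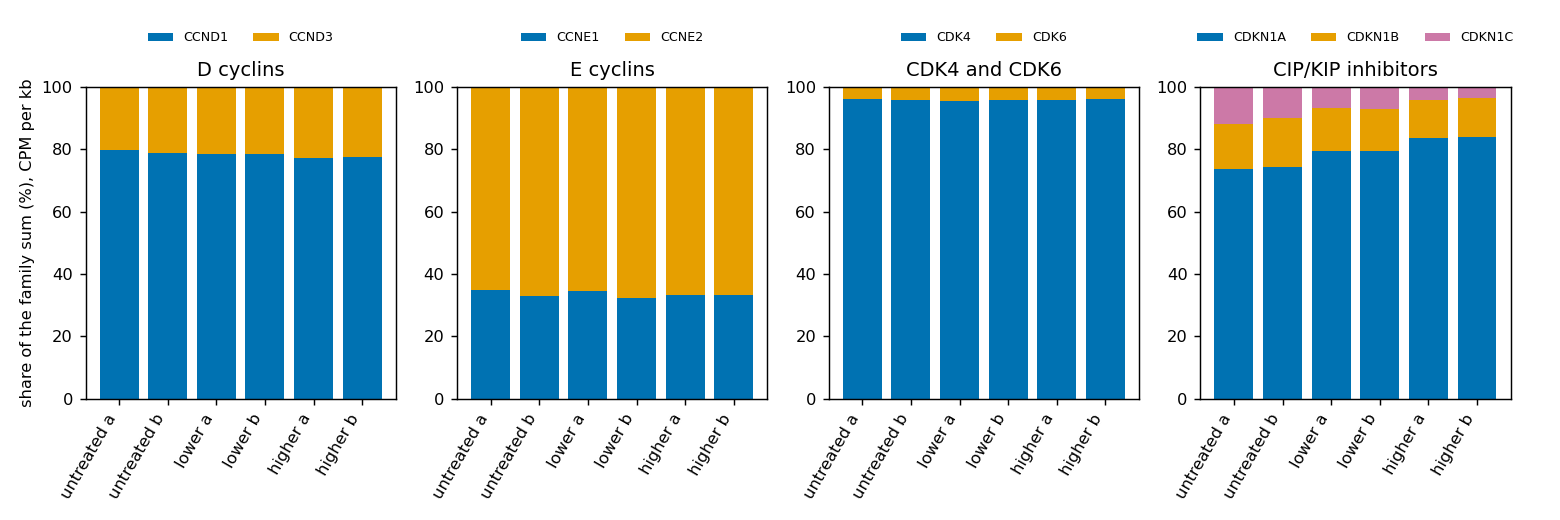
Share of each gene (%, y axis from 0 to 100) in the summed level per kb of its family, for each of the 6 libraries from untreated to higher dose. In the CIP/KIP family CDKN1A takes 73.6% to 74.2% of the untreated libraries and 83.5% to 83.8% of the higher dose libraries, while the makeup of the E cyclins and of CDK4 with CDK6 hardly moves.

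Several of the genes share exon sequence with a neighbour on the opposite strand, in GENCODE 29. The library kit does not mark strand, so reads in such stretches cannot be told apart. Levels, ranks and shares per length used the full exon length, and how shared stretches were counted is not given. For CCNE2 and CDK4 these levels and shares could be too low if reads in shared stretches were left out. TSPAN31 covers 51.93% of the CDK4 exons. It averaged 26.03 CPM in untreated cells, far below CDK4, and did not pass at the lower dose (0.02, edgeR adjusted p = 0.79) or the higher dose (−0.12, edgeR adjusted p = 0.0739). INTS8 covers 47.47% of the CCNE2 exons. It had 29.6 CPM at the higher dose and 27.8 CPM in untreated cells, and passed at neither dose (edgeR adjusted p = 0.838 and 0.169). LTO1, listed under its older symbol ORAOV1, covers 11.28% of the CCND1 exons. It rose, while CCND1 fell, to 33.6 CPM at the higher dose against 25.1 CPM in untreated cells (0.42, edgeR adjusted p = 3.62e-09). The antisense gene AC025162.1, for which no count was used here, covers 11.76% of the CDK2 exons. PMEL, which covers 3.65% of them, was at 1.45 CPM at the higher dose and 2.60 CPM in untreated cells.

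Further members of the pathway were counted in 5 lists drawn from general knowledge. The INK4 proteins inhibit CDK4 and CDK6 only. Of the 3 tested genes of the list that adds the INK4 genes and CCND2, 1 rose and 0 fell at the lower dose, also by DESeq2 and at an unadjusted p under 0.05, and 1 rose and 1 fell at the higher dose (medians 0.06 and −0.01). Over all tested genes 32.6% and 56.3% were called at these doses. CDKN2C (p18) averaged 100.2 ± 7.28 CPM in untreated cells, 123 ± 2.09 CPM with the lower dose and 133 ± 0.432 CPM with the higher dose, and rose at both (0.29 and 0.40, edgeR adjusted p = 3.95e-09 and 2.92e-14). CDKN2D (p19) was lower at the higher dose (−0.09, edgeR adjusted p = 0.025). That call was lost without untreated b, without higher dose a, without higher dose b and with DESeq2. CDKN2B had no read, and CDKN2A, which is described as deleted in this line, had 1 read in 1 library of the 6. CCND2, the remaining D cyclin, was near 6 CPM in all groups and did not pass (edgeR adjusted p = 0.89 and 0.925).

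Of the RB pocket proteins, E2F factors and their DP partners, 9 of 13 rose and 3 fell at the higher dose, with a median of 0.23 and the same counts under all 12 alternatives. Over all tested genes 28.1% rose and 28.2% fell at that dose. At the lower dose 5 rose and 2 fell, beside 16.7% and 15.9% over all tested genes, with a median of 0.09; 3 rose without lower dose a, and 1 fell without any 1 of the other 5 libraries. With DESeq2 4 rose and 1 fell at the lower dose, with the replicate block 5 and 1, and after the correction for length and GC content 7 and 2. The fall of TFDP2 at that dose was near the threshold (−0.12, edgeR adjusted p = 0.0457), and DESeq2 did not call it (adjusted p = 0.225). The 9 that rose at the higher dose were E2F1 to E2F8 and TFDP1. Their log2 fold changes at the higher dose ran from 0.14 (E2F1) to 0.47 (E2F6, edgeR adjusted p = 1.23e-10). E2F6 is a repressor that acts without RB, and E2F7 and E2F8 are repressors too, so the risers include both activators and repressors. RBL2, the pocket protein p130 that is known for repressing E2F targets in resting cells, fell by 38.1% at the higher dose, to 19.9 ± 0.876 CPM against 32.2 ± 0.251 CPM in untreated cells (−0.69 ± 0.06, edgeR adjusted p = 4.81e-15). RB1 (−0.16, edgeR adjusted p = 0.000704) and TFDP2 (−0.45, edgeR adjusted p = 1.92e-11) fell as well, and RBL1, p107, did not pass (0.06, edgeR adjusted p = 0.394).

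Among 15 E2F target genes of S phase entry, 6 rose and 0 fell at the higher dose, with a median of 0.05. The 6 calls among 15 genes are a smaller share than the 56.3% called over all tested genes. By direction, 28.1% of all tested genes rose and 28.2% fell, beside 6 and 0 of these 15. At an unadjusted p under 0.05 the counts were the same, and DESeq2 also called 6 higher and 0 lower. Without untreated a 1 gene was called lower, and after the correction for length and GC content 2 were. At the lower dose 2 rose and 0 fell, with a median of −0.01. Over all tested genes 16.7% rose and 15.9% fell at that dose. At an unadjusted p under 0.05, 3 of the 15 rose and 1 fell there, and DESeq2 called 1 higher and 0 lower. CDC6, a loader of the replicative helicase, rose by 24.6% at the higher dose (0.32 ± 0.03, edgeR adjusted p = 5.93e-12), CDC45 by 12.3% (0.17) and RRM2, a subunit of ribonucleotide reductase, by 11.3% (0.15). The helicase gene MCM3 (−0.02, edgeR adjusted p = 0.654) and the thymidine kinase TK1 (0.01, edgeR adjusted p = 0.872) did not pass. After the correction for length and GC content TK1 was called lower (−0.059, edgeR adjusted p = 0.0498).

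**Figure D4:**
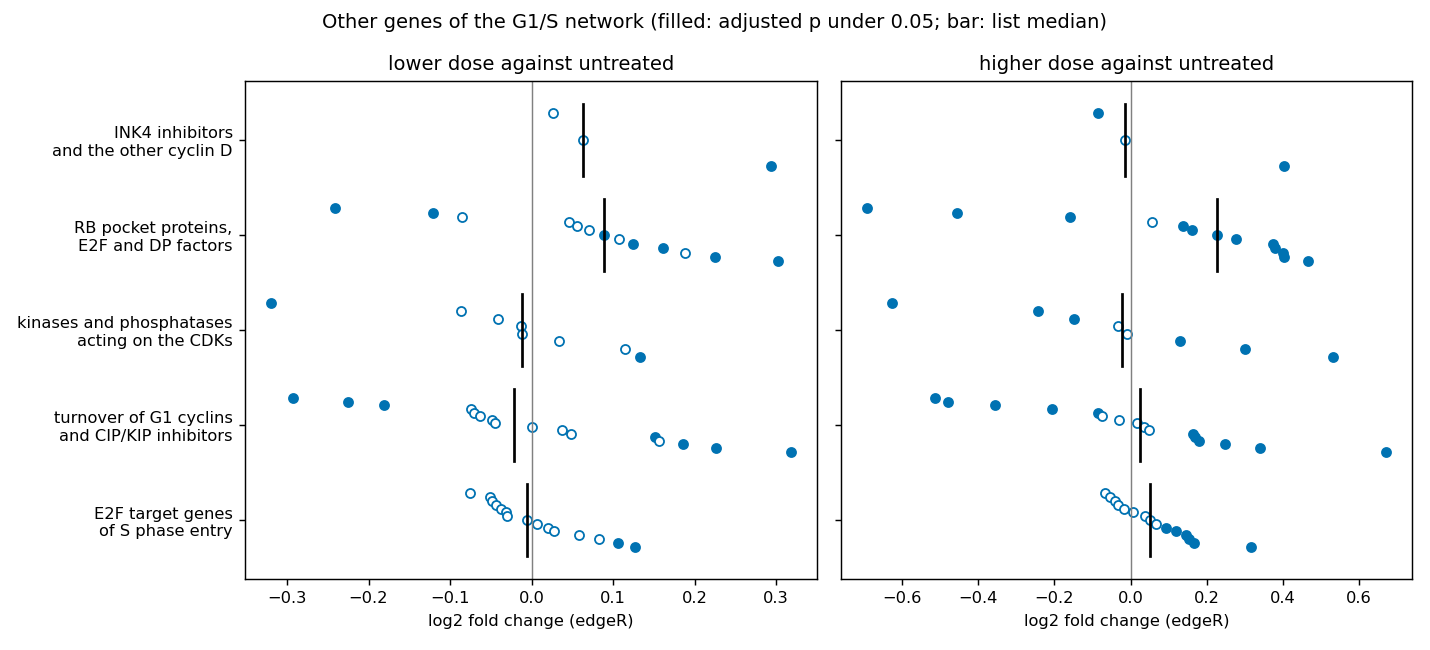
Log2 fold change (x axis, edgeR) at the lower and the higher dose, each against untreated, for every tested gene of the 5 further lists; points are genes, filled points passed the adjusted threshold, and black bars are list medians. At the higher dose the E2F and DP genes lie mostly to the right of 0, with RBL2 at −0.69 as the lowest gene of that list, and the E2F targets stay close to 0.

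The kinases and phosphatases that act on the CDKs moved in both directions: 3 of 8 rose and 3 fell at the higher dose, beside 28.1% and 28.2% over all tested genes, with a median of −0.02. At the lower dose 1 rose and 1 fell, beside 16.7% and 15.9% over all tested genes, with a median of −0.01. With DESeq2, with RLE scaling and with the groups compared alone, 0 rose and 1 fell at that dose. The gene that rose there, CDC25A, was near the threshold (0.13, edgeR adjusted p = 0.0484). It also lost the call with no filter on low counts (edgeR adjusted p = 0.0563) and with the replicate block (edgeR adjusted p = 0.0527). After the correction for length and GC content 2 rose and 2 fell. CDC25A, the phosphatase that activates CDK2 at entry into S phase, rose by 44.6% at the higher dose to 46.0 ± 1.19 CPM, against 31.7 ± 2.04 CPM in untreated cells (0.53 ± 0.05, edgeR adjusted p = 2.44e-13). CDC25C, which acts at entry into mitosis, fell by 35.2% to 15.9 ± 0.592 CPM, against 24.6 ± 0.779 CPM (−0.63 ± 0.07, edgeR adjusted p = 6.52e-12). PKMYT1, a kinase that inhibits CDK1, rose by 23.0% (0.30, edgeR adjusted p = 2.44e-07). CDK7 and MNAT1, subunits of the CDK-activating kinase, did not pass (edgeR adjusted p = 0.867 and 0.546). After the correction for length and GC content both were called lower (−0.17 and −0.13), and the list then had 2 rising and 5 falling.

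For the genes that mark G1 cyclins and CIP/KIP inhibitors for destruction, 6 of 16 rose and 5 fell at the higher dose, and 4 rose and 3 fell at the lower dose, with medians of 0.03 and −0.02. Over all tested genes 56.3% were called at the higher dose and 32.6% at the lower dose. With DESeq2 5 rose and 5 fell at the higher dose. The same counts came with the replicate block and after the correction for length and GC content. FBXW7, the ubiquitin ligase subunit that recognises cyclin E, rose by 59.3% at the higher dose to 13.6 ± 1.15 CPM, against 8.47 ± 0.944 CPM in untreated cells (0.67 ± 0.09, edgeR adjusted p = 6.82e-09). CUL4B, a cullin scaffold, fell by 29.95% to 106 ± 0.285 CPM, against 152 ± 0.348 CPM (−0.51 ± 0.03, edgeR adjusted p = 5.24e-20). RNF123, a ligase subunit that acts on p27, fell by 28.3% (−0.48, edgeR adjusted p = 6.14e-14). DTL and CUL1 did not pass (edgeR adjusted p = 0.762 and 0.557).

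The genes whose pattern lay closest to that of CCND1 over the 6 libraries, by Euclidean distance between centred log2 CPM among 12305 genes, were ECH1 (0.0279), ACOT7 (0.029) and CCP110 (0.0303), with log2 fold changes of −0.15, −0.16 and −0.17 at the higher dose. For CDKN1C they were HEG1 (0.2204), STAT2 (0.2385) and JUP (0.2449), with −1.14, −1.19 and −1.34. The distances for CDKN1C are larger, and its own 2 untreated libraries lay farther apart than those of CCND1.

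**Figure D5:**
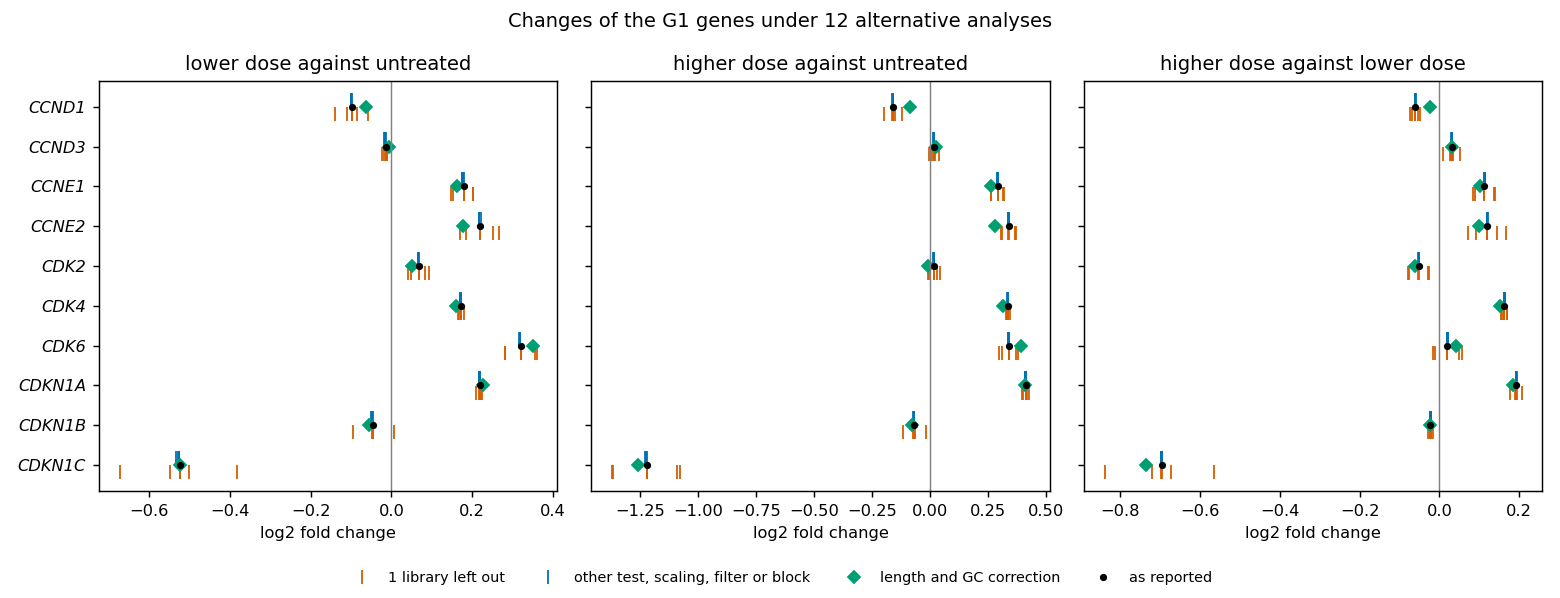
Log2 fold change (x axis) of the 10 genes in the 3 comparisons as reported (black) and under the 12 other ways of processing; ticks are fits with another test, scaling, filter or block, or with 1 library left out, and diamonds are the correction for length and GC content. The CDKN1C change at the lower dose spreads from −0.67 to −0.38, and the CCND1 diamonds lie closer to 0 than the reported values.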

How the data were processed

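mRNA bound to EGFP-L10a ribosomes was sequenced in 6 libraries, 2 for each of 3 groups taken from the treatment labels. The authors deposited raw read counts for each gene, as whole numbers made with HTSeq; CASAVA 1.8.1, TopHat 1.4.0 and the build hg19 are named in the submitters' processing notes. Neither the annotation nor the use of strand in counting is given in these sources. HTSeq's 5 summary lines took 9.40% to 10.2% of each library's reads and entered neither library sizes nor tests. Counts were fitted in R 4.3.3 by edgeR 4.0.16 (with TMM factors from 0.997 to 1.003, filterByExpr, robust quasi-likelihood F test, two-sided) in 1 fit of all 6 libraries with 3 residual degrees of freedom, and p-values were adjusted by Benjamini-Hochberg over all 13548 genes tested; 8071 genes did not pass the filter. The SE was taken as the size of the log2 fold change divided by the root of F. TMM sets changes relative to the bulk of genes. The scripts were tested on simulated data. Replicates of a group differed by more than counting noise (chi-square per degree of freedom of 1.52 to 1.98). That spread cannot show whether they came from separate cultures. Each was counted as a sample because the labels call them biological replicates.

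Lengths came from GENCODE 29 (GRCh38), matched by symbol for 85.23% of the genes, and no coordinates were carried over to the counts. Alternatives were RLE scaling, DESeq2 1.42.0, no filter on low counts, a replicate block, a loess correction for length and GC content (span 0.4), each library left out, and the groups compared alone; shares with the longest transcript as length were added after seeing the data. The 10 genes and the lists were chosen with earlier results of these data known. In each list the named genes are at most 3 with the largest called change at the higher dose and at most 2 of the highest CPM that did not pass; others named were chosen after their values were seen. Reads carry no molecular identifiers.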

Additional observations from a re-analysis of the deposited data

How the results depend on the processing

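For the 10 genes, 352 of 360 values recomputed under 12 alternatives kept their side of the threshold, 5 lost the call and 3 gained it; the exceptions were CCND1 at the lower dose, CCND1 between the doses and CCNE2 between the doses. In 7 of the 352 the sign changed, all of changes not called: CCND3 and CDK2 at the higher dose, CDKN1B at the lower dose and CDK6 between the doses. Of 1150 values of 32 other named genes, 1080 kept their side of the threshold, 32 of them with another sign and none of these called; 50 lost and 19 gained a call, and TK1 at the higher dose reversed after the correction for length and GC content (−0.059, against 0.01). DESeq2 called fewer genes: 2563 (1342 higher, 1221 lower) against 4418 by edgeR at the lower dose, and 2759 (1328 higher, 1431 lower) against 4612 between the doses. At the higher dose it called 5643 (2812 higher, 2831 lower) against 7626 by edgeR. The number of calls over all tested genes thus depends on the test. The cause was not tested. With the replicate block 4320, 7561 and 4516 genes were called at the lower dose, the higher dose and between the doses, and no call of the 10 genes changed. Libraries of the same letter did not deviate together (r from −0.045 to 0.0025), so the letters are taken as names only. With the longest transcript as length, CCND1 took 70.5%, 69.3% and 68.0% of the D cyclins from untreated cells to the higher dose, as CCND3 has a longer annotated exon union than transcript. Depth limits CDKN1C most, with 138 to 363 reads a library.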
